A study of Mus musculus with 4 samples.

Results

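Transcript levels of 10 genes of the NRF2 antioxidant pathway were described in MLL-AF9 leukaemic cells with and without floxed Meis1 alleles. The genes were Nfe2l2, which encodes NRF2 itself, its repressor gene Keap1, and 8 genes for glutathione supply, the thioredoxin system, quinone reduction and haem breakdown: Slc7a11, Gclc, Gclm, Gsr, Txnrd1, Srxn1, Nqo1 and Hmox1. They were taken by symbol from the 22072 symbols of the deposited tables; all 10 were listed, and all 10 reached the floor of 1 FPKM in at least 1 library, as did 10922 symbols in all. FPKM is the number of fragments per kilobase of transcript, scaled to the mapped total, so levels can be set side by side between genes. Of the 10 genes, 8 had a single transcript row; Txnrd1 and Keap1 had 4 rows each and are given by their row with the highest mean and by the sum of rows.

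The cells were leukaemic bone marrow cells of C57BL/6 mice, and every group carried the MLL-AF9 allele in the heterozygous state. Control cells had the genotype MLL-AF9-/+, and the floxed cells, called Meis1f/f in the plots, had the genotype Meis1f/fCreER+/- MLL-AF9-/+, where CreER is a recombinase that tamoxifen activates. Cells of either genotype were kept for 24 h with vehicle or with 4-hydroxytamoxifen (4-OHT) at 1000 nM; the medium, IMDM, held 10 ng/ml each of SCF, IL-6, IL-3 and GM-CSF. Values for 4 libraries are always listed for control cells first (vehicle, then 4-OHT) and floxed cells second (vehicle, then 4-OHT). There was 1 library for each of the 4 groups, so no difference below has a replicate check and none was tested. The labels give the control cells no CreER, so the activated recombinase and the loss of Meis1 cannot be told apart. The labels name neither the promoter that drives CreER nor the number of animals or clones, and nothing says that the libraries came from separate cultures.

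NRF2 is a basic leucine zipper transcription factor. KEAP1 binds it in the cytoplasm and hands it to a CUL3 ubiquitin ligase; when reactive cysteines of KEAP1 are modified, NRF2 escapes, pairs with a small MAF protein and binds antioxidant response elements. Its targets raise cystine uptake, glutathione synthesis, thioredoxin reduction and quinone reduction, and haem oxygenase 1 is also held down by the repressor BACH1, which haem releases. Several of these genes answer to other factors too: Slc7a11 is also a target of ATF4, the factor of the amino acid stress response. NRF2 is controlled mostly at the protein level, so its RNA is not a measure of its activity.

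Estimated depth was 28.5, 22.2, 43.1 and 18.4 M reads. The main Meis1 row was at 11.6, 12.1, 11.8 and 7.38 FPKM, a partial check of the label, since no source used here gives the deleted part of the gene. By the sheet names, vehicle-treated floxed cells were sequenced in lane 1 and the remaining 3 libraries in lane 2, so lane and group cannot be told apart for it. In that library longer transcripts tended to be higher: across 10922 symbols Spearman's rho of transcript length with the difference between the vehicle libraries was 0.25, against 0.03 between the 4-OHT libraries. Of the marker lists, 6 of 7 myeloid progenitor genes were matched and summed to 4974, 5799, 3352 and 5035 FPKM, lowest in the floxed vehicle library. They were led by the elastase gene Elane. The myeloperoxidase gene Mpo was at 898, 1280, 710 and 1163 FPKM. The T cell marker Cd3e was listed at 0 in every library, and the collagen genes Col1a1 and Col1a2 were under 0.1 FPKM. Summed over 8 mast cell and basophil markers, the level was 254 and 236 FPKM in the control libraries and 2524 and 1993 FPKM in the floxed libraries (vehicle and 4-OHT); the 10 matched macrophage markers summed to 163, 162, 218 and 207 FPKM, the 6 erythroid markers to 17.6, 6.57, 68.1 and 75.5 FPKM, the 6 neutrophil markers to 7443, 6732, 10790 and 8957 FPKM, and the 6 dendritic markers to 58.6, 98.8, 164 and 220 FPKM. The 4 stromal and endothelial markers summed to at most 0.302 FPKM. In bulk RNA, fewer cells of a type and less RNA per cell cannot be told apart, and the part of these marker differences in the results below was not tested.

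Promoter sequences were matched by symbol for 7 of the 10 genes (RefSeq, GRCm38.p6; 250 bases before to 50 bases after each start site). The windows were searched on both strands for TGACNNNGC, the core of the antioxidant response element, for TGATGCAA, the core of the composite element bound by ATF4 with C/EBP factors, and for TGACTCA, the AP-1 site, which overlaps the first motif where GC follows it. TGACNNNGC was in 12.4% of all 32851 windows, TGACTCA in 5.20% and TGATGCAA in 0.895%. Of the 7 genes, 4 held TGACNNNGC (Gclm, Nfe2l2, Srxn1 and Txnrd1), 1 held TGATGCAA (Slc7a11) and 1 held TGACTCA (Srxn1). These counts are per gene and the shares per window, so they are not directly comparable. Txnrd1 had more than 1 window, and those starting at 82833701 and 82860091 held none of the motifs. The windows of Keap1 and Nqo1 held none of them either. Windows of Txnrd1, which was also lower with 4-OHT in each genotype, and of Keap1 and Nqo1 are not shown. Every window printed below therefore holds a match. The windows of Slc7a11 and Srxn1 are shown because these genes differed most between the libraries together with Hmox1, and those of Gclm and Nfe2l2 because both had lower levels with 4-OHT in each genotype; capitals mark the matches. In Slc7a11 the matches to TGATGCAA start 66 and 47 bases before the start site, on opposite strands; in Srxn1 the matches to TGACTCA start 102 and 45 bases before it and the match to TGACNNNGC at base 29 of the transcript; in Gclm and Nfe2l2 TGACNNNGC starts 134 and 240 bases before it. A match is a description of the letters and not a bound site.
Slc7a11 (chr3:50443564-50443863, minus strand): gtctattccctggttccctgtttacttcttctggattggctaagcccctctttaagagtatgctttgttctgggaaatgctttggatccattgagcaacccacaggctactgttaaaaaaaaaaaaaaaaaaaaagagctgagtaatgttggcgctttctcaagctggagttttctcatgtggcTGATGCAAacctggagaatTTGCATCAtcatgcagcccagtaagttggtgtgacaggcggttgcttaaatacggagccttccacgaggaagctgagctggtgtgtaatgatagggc
Srxn1 (chr2:152105274-152105573, plus strand): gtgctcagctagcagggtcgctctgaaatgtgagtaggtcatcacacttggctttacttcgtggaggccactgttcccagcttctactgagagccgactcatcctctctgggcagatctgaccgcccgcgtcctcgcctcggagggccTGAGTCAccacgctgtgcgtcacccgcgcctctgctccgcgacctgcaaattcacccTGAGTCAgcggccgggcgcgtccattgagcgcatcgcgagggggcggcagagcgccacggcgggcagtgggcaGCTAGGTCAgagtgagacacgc
Gclm (chr3:122245307-122245606, plus strand): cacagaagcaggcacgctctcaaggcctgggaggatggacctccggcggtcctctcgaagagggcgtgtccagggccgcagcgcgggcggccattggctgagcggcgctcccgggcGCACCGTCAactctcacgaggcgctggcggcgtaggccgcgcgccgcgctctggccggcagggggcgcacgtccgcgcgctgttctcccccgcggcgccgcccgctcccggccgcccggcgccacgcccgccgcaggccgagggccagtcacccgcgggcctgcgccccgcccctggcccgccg
Nfe2l2 (chr2:75704614-75704913, minus strand): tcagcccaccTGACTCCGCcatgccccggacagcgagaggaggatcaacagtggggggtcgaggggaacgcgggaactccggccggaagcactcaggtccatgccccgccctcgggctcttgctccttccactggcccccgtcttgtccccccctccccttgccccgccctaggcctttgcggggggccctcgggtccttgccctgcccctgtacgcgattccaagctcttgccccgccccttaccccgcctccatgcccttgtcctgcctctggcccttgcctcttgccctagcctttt

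The 10 genes differed in pattern across the libraries. Hmox1, Slc7a11 and Srxn1 were highest in the floxed vehicle library, and Nqo1 was high in both floxed libraries. By the row with the highest mean, both 4-OHT libraries lay below both vehicle libraries for 6 of the 10 genes (Hmox1, Slc7a11, Gclc, Gclm, Txnrd1 and Nfe2l2), against 13.8% of all symbols, and above them for 1 (Gsr), against 27.0%. Both floxed libraries lay above both control libraries for 3 genes (Nqo1, Srxn1 and Keap1), against 19.0%, and below them for 0, against 20.4%. Gsr and Keap1 were nearly level, with the highest library 1.14 times the lowest for Gsr and 1.17 times for the summed Keap1 rows. That ratio was 11.2 for Slc7a11, 5.74 for Hmox1, 3.37 for Srxn1 and 3.10 for Nqo1. In control vehicle cells the order of levels was Gsr (159 FPKM), Gclm (138), Txnrd1 (110, summed), Nfe2l2 (65.5), Hmox1 (61.7), Gclc (24.6), Keap1 (17.3, summed), Srxn1 (12.5), Slc7a11 (11.0) and Nqo1 (7.14). In floxed vehicle cells Hmox1 stood first, at 188 FPKM, and Keap1 last, at 19.6 FPKM.

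**Figure D1:**
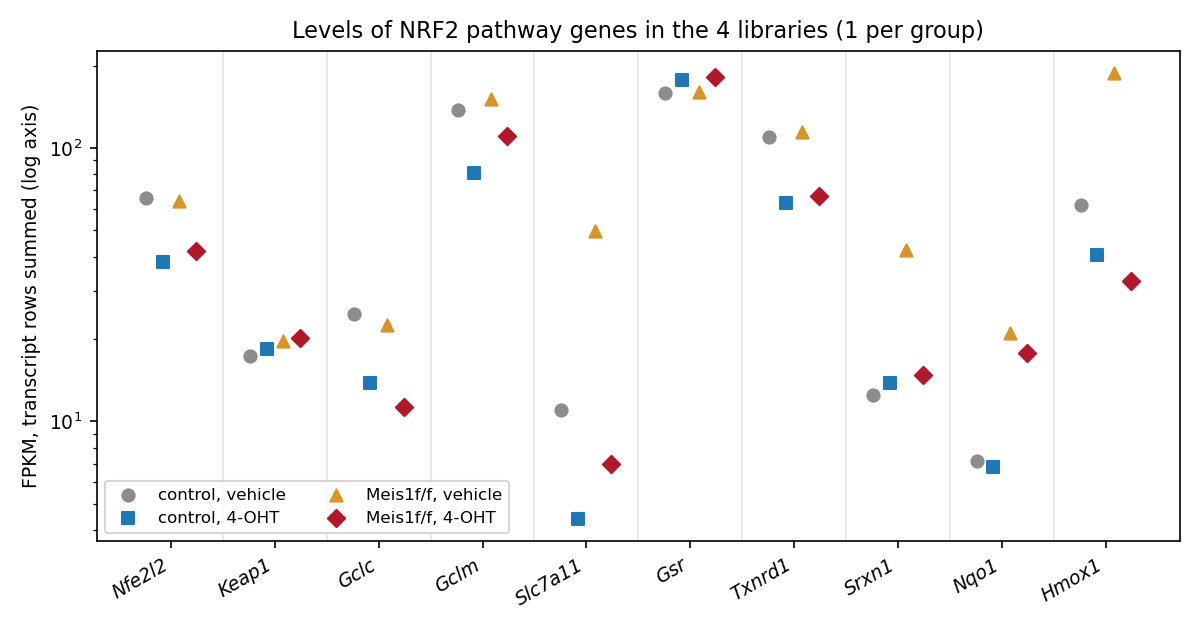
Levels of the 10 genes in FPKM, transcript rows summed, on a log axis, with 1 point for each of the 4 libraries. Hmox1, Slc7a11 and Srxn1 have 1 point far above the other 3, at 188, 49.6 and 42.2 FPKM in the floxed vehicle library, while the 4 points of Gsr lie between 159 and 181 FPKM.

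Each difference below is one of log2(FPKM + 1), so that of a low gene is understated; higher and lower in counts mean a difference of at least 1. Ratios of FPKM carry 95% exact (Clopper-Pearson) counting intervals from estimated reads, which cover counting error only. With 4-OHT in control cells 2 of the 10 genes were lower (Slc7a11 and, by its main row, Txnrd1), against 0.879% of all symbols, and 0 were higher, against 1.37%. In floxed cells 3 were lower (Hmox1, Slc7a11 and Srxn1), against 2.28%, and 0 higher, against 1.63%. The same 3 were lower when the effect of 4-OHT in control cells was subtracted from that in floxed cells, where 3.63% of all symbols were lower and 2.11% higher. Under vehicle 4 were higher in floxed than control cells (Hmox1, Slc7a11, Srxn1 and Nqo1), against 5.84%, and 0 lower, against 2.11%. Under 4-OHT 1 was higher (Nqo1), against 3.72%, and 0 lower, against 1.61%. These comparisons share libraries, so the floxed vehicle level of Hmox1, Slc7a11 and Srxn1 enters 3 of them. The median over the 10 genes was -0.68 with 4-OHT in control cells and -0.53 in floxed cells, beside 0.05 and 0.11 over all symbols.

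**Figure D2:**
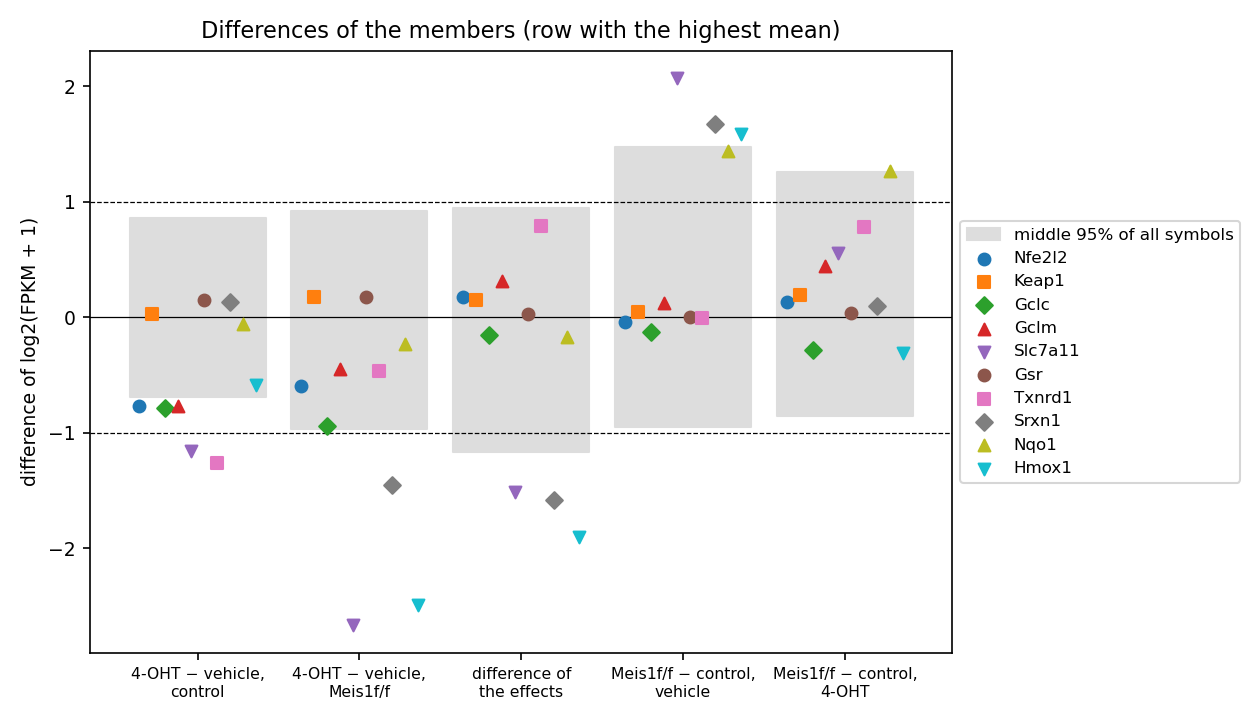
Difference of log2(FPKM + 1) for each of the 10 genes (row with the highest mean) in 5 comparisons; grey boxes span the middle 95% of 10922 symbols and dashed lines mark a size of 1. Slc7a11 and Hmox1 lie lowest with 4-OHT in floxed cells, at -2.67 and -2.49, and Nqo1 is the gene above 1 in both comparisons between genotypes.

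Nfe2l2 RNA was lower in both 4-OHT libraries and Keap1 RNA was not. Nfe2l2 (chromosome 2, 75513575 to 75542698; here and below the positions are the deposited ones, whose build is unsettled) was at 65.5, 38.1, 63.8 and 41.99 FPKM. Both 4-OHT libraries were lower than both vehicle libraries. The 4-OHT to vehicle ratio was 0.582 in control cells (interval 0.552 to 0.613) and 0.658 in floxed cells (0.625 to 0.693), and the log2 differences of -0.77 and -0.59 stayed short of the size of 1. Between genotypes its ratio was 0.974 under vehicle (0.938 to 1.01) and 1.10 under 4-OHT (1.03 to 1.17). Keap1 (chromosome 9, 21034173 to 21043776), summed over rows, was at 17.3, 18.4, 19.6 and 20.2 FPKM. Its ratio of 4-OHT to vehicle was 1.06 in control (0.988 to 1.14) and 1.03 in floxed cells (0.960 to 1.10); in control cells its log2 difference was 0.03 for the main row and 0.08 for the sum, and for the row it was below 0 under median ratio rescaling (-0.01) and with the length trend removed (-0.05). The ratio of Nfe2l2 to summed Keap1 levels was 3.79 and 3.25 in the vehicle libraries and 2.07 and 2.08 in the 4-OHT libraries (control and floxed). NM_001110307 held most of the Keap1 signal, at 14.0, 14.3, 14.5 and 16.5 FPKM.

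Slc7a11, the light chain of the cystine-glutamate exchanger that brings in cystine for glutathione synthesis, had the widest range of the 10 genes. It lies on chromosome 3 (50168857 to 50247535) and was at 11.0, 4.41, 49.6 and 6.97 FPKM. The floxed vehicle library was above the other 3, and within each genotype the 4-OHT library was below the vehicle library. The 4-OHT to vehicle ratio was 0.400 in control cells (interval 0.370 to 0.431) and 0.141 in floxed cells (0.132 to 0.149), log2 differences of -1.15 and -2.67. In floxed cells it stood 10th from the lowest of 10922 symbols, and 57th in control cells. Under vehicle its level in floxed cells was 4.49 times that in control cells (4.32 to 4.68), and under 4-OHT 1.58 times (1.45 to 1.73). Its transcript is 9227 bases long; with the trend on length removed the differences were -2.44 with 4-OHT in floxed cells and 1.71 between the genotypes under vehicle. Of the 7 genes with a promoter window, Slc7a11 was the 1 that held TGATGCAA.

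The glutamate-cysteine ligase subunits, which carry out the rate-limiting step of glutathione synthesis, had lower transcript levels in both 4-OHT libraries. Gclc, the catalytic subunit (chromosome 9, 77602341 to 77642296), was at 24.6, 13.9, 22.5 and 11.3 FPKM. Its ratio of 4-OHT to vehicle was 0.562 in control (0.523 to 0.605) and 0.499 in floxed cells (0.460 to 0.542); the log2 difference in floxed cells, -0.94, stayed short of 1 as deposited and passed it at -1.08 under median ratio rescaling. Gclm, the modifier subunit (chromosome 3, 121948509 to 121969566), was at 138, 80.8, 151 and 110 FPKM, with ratios of 0.586 (0.559 to 0.613) and 0.732 (0.703 to 0.763). For both genes the 4-OHT libraries lay below the vehicle libraries. The level of Gclm was 5.6, 5.83, 6.69 and 9.81 times that of Gclc in the 4 libraries. Gsr, glutathione reductase, which returns oxidized glutathione to its reduced form (chromosome 8, 34763709 to 34808634), was at 159, 177, 160 and 181 FPKM. Its ratio was 1.11 in control (1.08 to 1.14) and 1.13 in floxed cells (1.10 to 1.16), the opposite direction to Gclc and Gclm.

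In the thioredoxin arm, Txnrd1, the cytosolic thioredoxin reductase (chromosome 10, 82296695 to 82360469), was read from 4 rows. Their sum was at 110, 62.7, 115 and 66.7 FPKM. The summed ratio of 4-OHT to vehicle was 0.569 in control (0.550 to 0.589) and 0.583 in floxed cells (0.563 to 0.603). The rows split this differently: NM_015762 was at 50.1, 20.4, 50.01 and 35.9 FPKM and NM_001042513 at 46.7, 33.7, 50.7 and 23.6 FPKM. Both rows were lower with 4-OHT in each genotype, but the first fell further in control cells and the second in floxed cells. They have the same deposited start and end. The size rule was passed in control cells by the first row (-1.26) and not by the sum (-0.80), so that call depends on how reads were divided between rows.

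**Figure D3:**
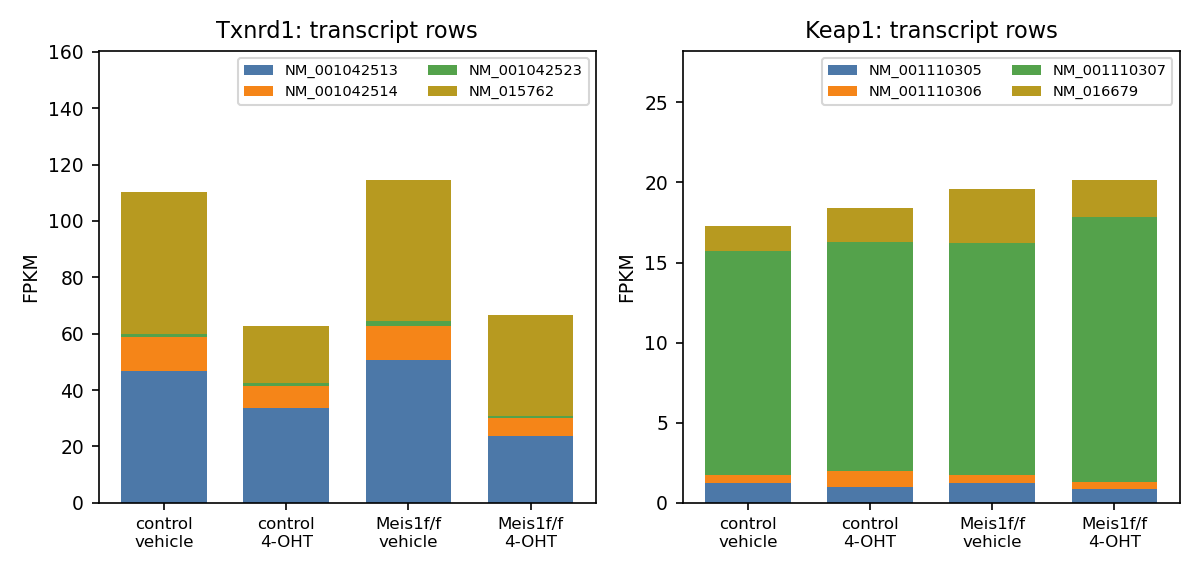
Stacked bars of FPKM for the 4 transcript rows of Txnrd1 and of Keap1 in each of the 4 libraries. The Txnrd1 stacks reach 110 and 115 FPKM under vehicle and 62.7 and 66.7 FPKM under 4-OHT, and the Keap1 stacks stay between 17.3 and 20.2 FPKM.

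Srxn1, sulfiredoxin, which repairs over-oxidized peroxiredoxins (chromosome 2, 151931465 to 151937089), was at 12.5, 13.8, 42.2 and 14.8 FPKM. The floxed vehicle library was high and the other 3 lay between 12.5 and 14.8 FPKM. The 4-OHT to vehicle ratio was 0.351 in floxed cells (0.324 to 0.380), against 1.10 in control cells (1.00 to 1.22), log2 differences of -1.45 and 0.13. Under vehicle its level in floxed cells was 3.37 times that in control cells (3.14 to 3.62), and under 4-OHT 1.07 times (0.968 to 1.19).

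Nqo1, a quinone reductase often used as a readout of NRF2, was higher in both floxed libraries. It lies on chromosome 8 (109912124 to 109927105) and was at 7.14, 6.81, 21.1 and 17.8 FPKM, with no overlap between the genotypes. Its ratio between genotypes was 2.96 under vehicle (2.61 to 3.35) and 2.62 under 4-OHT (2.24 to 3.07), while the 4-OHT to vehicle ratio was 0.954 in control (0.802 to 1.13) and 0.845 in floxed cells (0.762 to 0.936). The mast cell and basophil markers were also higher in both floxed libraries in sum (254 and 236 against 2524 and 1993 FPKM). So were the erythroid (17.6 and 6.57 against 68.1 and 75.5 FPKM), dendritic (58.6 and 98.8 against 164 and 220 FPKM), neutrophil and macrophage sums. The myeloid progenitor sum was not (4974 and 5799 against 3352 and 5035 FPKM). The part of these markers in the Nqo1 level was not tested.

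Hmox1, haem oxygenase 1, which splits haem into biliverdin, carbon monoxide and iron, lies on chromosome 8 (77617516 to 77624492). It was at 61.7, 40.8, 188 and 32.7 FPKM. The floxed library was the highest of the 4 under vehicle and the lowest under 4-OHT. The 4-OHT to vehicle ratio was 0.174 in floxed cells (0.163 to 0.186) and 0.660 in control cells (0.619 to 0.704), and the ratio of these ratios was 0.264. In floxed cells its log2 difference of -2.49 was the 13th lowest of 10922 symbols. Between genotypes the ratio was 3.04 under vehicle (2.92 to 3.17) and 0.803 under 4-OHT (0.739 to 0.872). The constitutive enzyme gene Hmox2 was at 40.3, 40.8, 21.1 and 36.5 FPKM, so the level of Hmox1 was 1.53, 0.998, 8.93 and 0.897 times that of Hmox2. The mast cell and basophil, neutrophil and macrophage marker sums were also highest in the vehicle library of the floxed cells, at 2524, 10790 and 218 FPKM. Members of these lists differed: S100a8 (3551, 3254, 4836 and 4620 FPKM), S100a9 (2611, 2433, 4751 and 3583) and Cd14 (41.4, 19.7, 72.2 and 27.3) were highest there, the granule genes Ngp (978, 750, 855 and 467) and Camp (76.2, 76.9, 51.0 and 44.6) were not, and the macrophage gene Cd68 was lowest there (75.9, 81.8, 72.1 and 88.2). The macrophage gene Csf1r (17.4, 21.3, 26.1 and 18.3) was highest in the floxed vehicle library. Emr1 (19.7, 27.6, 31.6 and 47.3) and Mrc1 (3.26, 6.03, 10.4 and 20.8) were highest in the floxed 4-OHT library. Of the mast cell and basophil genes, Mcpt8, Hdc, Prss34, Gata2 and Il4 were highest in the floxed vehicle library. Cpa3 (54.2, 62.2, 355 and 652), Fcer1a and Ms4a2 were highest in the floxed 4-OHT library. The myeloid progenitor sum was lowest in the floxed vehicle library (4974, 5799, 3352 and 5035 FPKM). The part of these markers in the levels of Hmox1, Slc7a11 and Srxn1 was not tested.

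Other genes of haem breakdown and iron release were described from a list of 8, of which 7 were matched and 7 reached the floor. In that list 0 were higher or lower with 4-OHT in either genotype. Of all symbols 0.879% were lower and 1.37% higher in control cells, and 2.28% and 1.63% in floxed cells, so 0 of 7 is near the background. The biliverdin reductase gene Blvrb was the 1 gene higher in floxed than control cells under 4-OHT (9.73, 7.35, 17.1 and 19.4 FPKM), against 3.72% of all symbols. The ferritin heavy chain gene Fth1 was at 1367, 1042, 2177 and 1560 FPKM and the light chain gene Ftl1 at 3677, 3202, 3943 and 4437 FPKM. Slc48a1, a haem transporter, was at 78.9, 86.9, 100.3 and 98.6 FPKM. The list's median with 4-OHT was -0.12 in control and 0.17 in floxed cells, beside 0.05 and 0.11 over all symbols.

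Among 24 other NRF2 targets, Sqstm1, Osgin1, Me1 and Blvrb passed the size rule in at least 1 comparison. No share of all symbols was computed for the comparisons pooled, so counts are given for single comparisons. In the difference of the 4-OHT effects 2 were lower (Me1 and Osgin1), against 3.63% of all symbols. Under 4-OHT 1 was higher in floxed cells (Blvrb), against 3.72%. All 24 were matched and reached the floor; 1 was lower with 4-OHT in control cells (Sqstm1), against 0.879% of all symbols, and 3 in floxed cells (Sqstm1, Osgin1 and Me1), against 2.28%; 0 were higher in either, against 1.37% and 1.63%. Sqstm1, the autophagy receptor p62 that also binds KEAP1, was at 147, 71.1, 281 and 91.6 FPKM. Its ratio was 0.482 in control (0.463 to 0.503) and 0.326 in floxed cells (0.315 to 0.338). Osgin1, oxidative stress induced growth inhibitor 1, was at 2.92, 3.23, 8.41 and 3.50 FPKM, high in the floxed vehicle library alone, and was the 1 gene of the 24 higher in floxed cells under vehicle, against 5.84%. Me1, malic enzyme, was at 3.66, 2.69, 4.94 and 1.34 FPKM. The abundant glutathione transferase gene Gstm1 was at 338, 380, 235 and 351 FPKM. The list's median was -0.17 in control cells and 0.15 in floxed cells with 4-OHT, and -0.23 between genotypes under vehicle, where all symbols had a median of -0.06.

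Of 10 partners and regulators of NRF2, 9 were matched, 8 reached the floor, and 0 were higher or lower in any of the 5 comparisons. Over all symbols the shares for a single comparison and direction ran from 0.879% to 5.84%, so 0 of 8 says little about these genes. Nfe2, a relative of NRF2 in blood cells, was at 89.6, 97.51, 107 and 90.8 FPKM. The repressor gene Bach1 was at 17.8, 12.8, 20.6 and 11.8 FPKM, lower in both 4-OHT libraries, with ratios of 0.722 (0.679 to 0.767) in control and 0.572 (0.537 to 0.608) in floxed cells. The small MAF gene Mafg was at 26.4, 28.7, 33.4 and 19.4 FPKM, and Cul3, of the ligase that KEAP1 serves, at 73.4, 51.8, 70.3 and 56.5 FPKM. Rbx1, of the same ligase, was at 46.0, 46.1, 35.3 and 42.7 FPKM. Bach2 was under 0.1 FPKM in every library.

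Among genes of cysteine supply, Slc3a2, Cth and Slc1a4 were highest where Slc7a11 was highest. Of 17 other glutathione and cysteine genes, all matched and 14 at the floor, 3 were higher in floxed than control cells under vehicle (Slc3a2, Cth and Slc1a4), against 5.84% of all symbols, and 0 lower, against 2.11%. With 4-OHT 1 was higher in control cells (Cth), against 1.37%, and 2 were lower in floxed cells (Cth and Slc1a4), against 2.28%. Slc3a2, the heavy chain that pairs with the SLC7A11 and SLC7A5 light chains, was at 72.1, 90.9, 168 and 88.5 FPKM with its rows summed, and 6.54, 20.6, 3.38 and 12.7 times the level of Slc7a11. Cth, cystathionine gamma-lyase, which makes cysteine from cystathionine, was at 1.94, 5.32, 22.9 and 6.23 FPKM. Its ratio between genotypes under vehicle was 11.8 (9.67 to 14.6), and its ratio of 4-OHT to vehicle was 2.75 in control cells (2.16 to 3.52) and 0.272 in floxed cells (0.234 to 0.314), so Slc7a11 and Cth lay in opposite directions with 4-OHT in control cells. Slc1a4, a carrier of alanine, serine and cysteine, was at 1.06, 2.30, 7.35 and 3.01 FPKM. Gss, glutathione synthetase, was at 5.50, 7.09, 6.87 and 9.02 FPKM, and the peroxidase gene Gpx4 at 204, 190, 202 and 223 FPKM summed. Gpx1 was lowest where Slc7a11 was highest, at 1033, 1072, 557 and 859 FPKM. The glutaredoxin gene Glrx was at 159, 127, 117 and 134 FPKM.

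**Figure D4:**
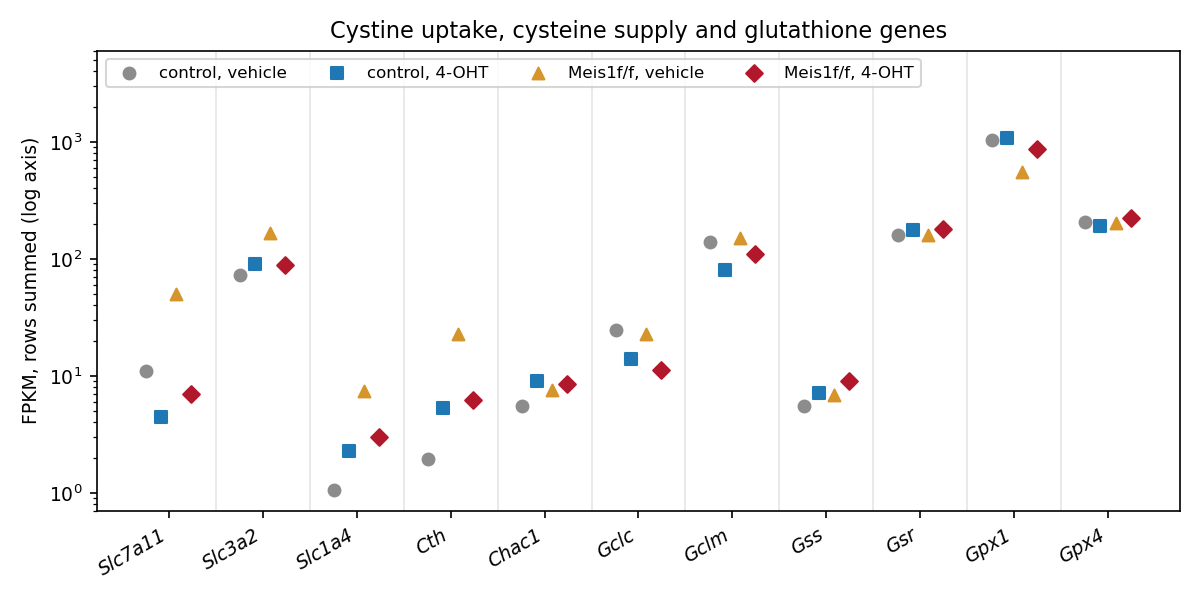
FPKM (rows summed, log axis) of genes for cystine uptake, cysteine supply and the glutathione cycle, 1 point per library. Slc7a11, Slc3a2, Slc1a4 and Cth are highest in the floxed vehicle library, Gclc and Gclm are lower in both 4-OHT libraries, and the points of Gsr and Gpx4 lie close together.

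Because Slc7a11 is also an ATF4 target, 16 genes of that response were set beside it, 3 of which (Slc3a2, Cth and Chac1) are in the list above. All 16 reached the floor; with 4-OHT 5 were lower in floxed cells (Atf5, Trib3, Slc7a5, Vldlr and Cth), against 2.28% of all symbols, and 0 in control cells, against 0.879%, where 1 was higher (Cth), against 1.37%. The median was 0.21 in control and -0.61 in floxed cells, beside 0.05 and 0.11 over all symbols. Under vehicle 6 were higher in floxed than control cells (Atf5, Trib3, Asns, Slc7a5, Slc3a2 and Cth), against 5.84%, and under 4-OHT 1 was lower (Trib3), against 1.61%. Atf5 was at 21.2, 24.5, 68.6 and 27.9 FPKM, and Trib3, a pseudokinase, at 10.6, 15.8, 32.5 and 5.68 FPKM. Atf4 itself was at 283, 276, 244 and 197 FPKM, and the serine synthesis genes Psat1 and Phgdh at 160, 172, 138 and 114 FPKM and at 145, 149, 126 and 123 FPKM. With the effect in control cells subtracted from that in floxed cells, 8 of the 16 were lower, against 3.63% of all symbols. These were the 5 above with Ddit4, Asns and Slc3a2. The median was -0.905, beside 0.06 over all symbols. All 16 lay below 0, but the share of all symbols below 0 was not computed. The floxed vehicle library, alone in lane 1, enters this comparison and the counts of 5 and 6 above. Slc7a11 was at -1.51 in that comparison. With 4-OHT in control cells Slc7a11 was at -1.15, and the 16 ran from -0.09 to 1.11. Ddit4, an inhibitor of mTORC1 signalling, was at 13.4, 23.9, 22.2 and 17.4 FPKM, the asparagine synthetase gene Asns at 53.2, 85.8, 132 and 66.6 FPKM, and the amino acid carrier gene Slc7a5 at 94.2, 110, 239 and 99.4 FPKM. Vldlr, a lipoprotein receptor, was at 0.593, 0.803, 1.33 and 0.101 FPKM by its main row, and at 0.593, 1.30, 1.47 and 0.101 FPKM with rows summed. Summed, it also passed the size rule between genotypes under 4-OHT (-1.06, against -0.71 for the row). Its floxed 4-OHT level rests on an estimated 15.2 reads.

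Among 14 thioredoxin, peroxiredoxin and peroxide genes, all at the floor, 0 were higher or lower with 4-OHT in either genotype. Of all symbols 0.879% were lower and 1.37% higher in control cells, and 2.28% and 1.63% in floxed cells, so 0 of 14 is near the background. Txnip, an inhibitor of thioredoxin, was the 1 gene higher in floxed cells under vehicle, against 5.84% of all symbols, at 32.3, 37.5, 85.9 and 45.1 FPKM; with its rows summed it also passed the size rule with 4-OHT in floxed cells (-1.14, against -0.91 for the row). The thioredoxin gene Txn1 was at 353, 304, 280 and 311 FPKM, the peroxiredoxin genes Prdx5 and Prdx1 at 310, 280, 303 and 264 FPKM and at 339, 259, 237 and 306 FPKM. The median was -0.12 in control and 0.14 in floxed cells with 4-OHT and -0.29 between genotypes under vehicle.

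**Figure D5:**
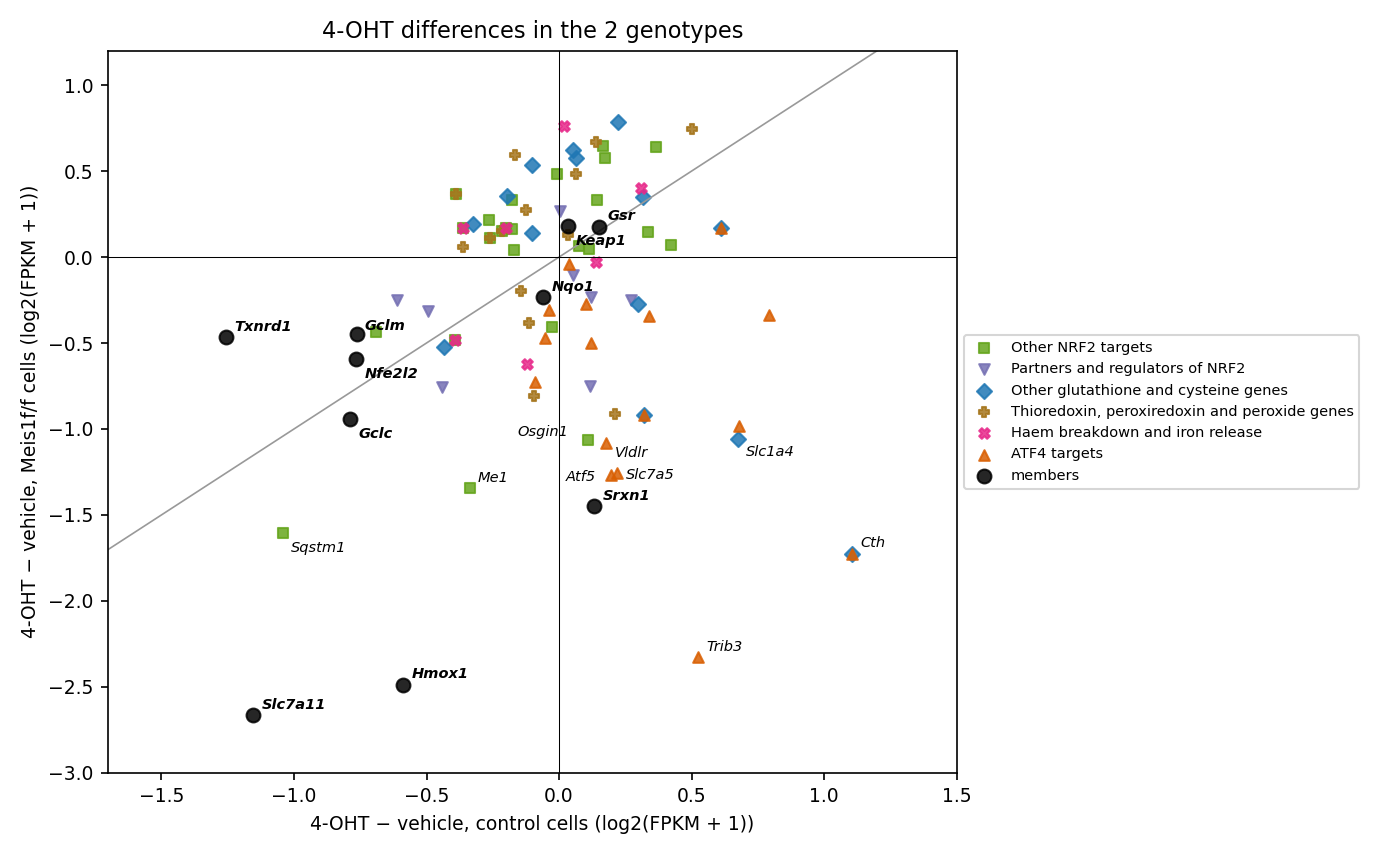
Difference of log2(FPKM + 1) for 4-OHT against vehicle in control cells (x axis) and floxed cells (y axis) for the 10 genes (black) and the members of 6 related lists at the floor; the grey line marks equal differences. Slc7a11 (-1.15 and -2.67), Hmox1 (-0.59 and -2.49) and Sqstm1 (-1.042 and -1.605) lie below 0 on both axes, while Srxn1 (0.13 and -1.45), Cth (1.11 and -1.73) and Trib3 (0.53 and -2.33) lie above 0 in control and below 0 in floxed cells.

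The genes most like each pattern had the smallest Euclidean distance between log2(FPKM + 1) values centred on their mean over the 4 libraries. Each gene was compared with 7716 symbols with at least 5 FPKM in a library, small RNAs and unnamed gene models left out. With 4 libraries from 4 groups, many symbols can look alike. For Hmox1 these were Il1rn (distance 0.295), Ptgs2, Cxcl3, Niacr1 and Il1f9. Il1rn, the interleukin 1 receptor antagonist, was at 13.9, 12.1, 48.2 and 7.87 FPKM by its main row, on which the match rests. Its rows summed to 19.95, 18.3, 64.4 and 16.7 FPKM. Ptgs2, cyclooxygenase 2, was at 1.23, 0.454, 7.52 and 0.765 FPKM. For Slc7a11 they were Fxyd4 (0.46), Ptgs2, the glycine transporter gene Slc6a9, Hmox1 (0.80) and Cxcl3, so Hmox1 and Slc7a11 shared Ptgs2 and Cxcl3. The match to Fxyd4, an ion transport regulator, rests on 1 of its rows, at 1.04, 0.001292, 8.35 and 0.0007158 FPKM; its rows summed to 1.04, 0.649, 12.7 and 2.01 FPKM. For Srxn1 they were Plek (0.10), Atf5 (0.14), Mgea5, Notch1 and Nedd9, with Plek, the platelet and leukocyte protein pleckstrin, at 41.1, 43.3, 133 and 50.9 FPKM. For Nqo1 they were Cd86 (0.05), Cyp11a1 (0.06), Trfr2, Ctse and Bcar3, all higher in both floxed libraries, with Cd86 at 2.99, 3.002, 10.2 and 8.56 FPKM and Cyp11a1 at 67.2, 65.4, 191 and 154 FPKM. For the Txnrd1 row they were Tlr2 (0.20), Otud7b, Fiz1, Vps37b and Traf4, but that row is uncertain as said above.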

How the data were processed

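RNA of 4 libraries, 1 per group, was sequenced; per the submitters' processing notes Bowtie and the mm8 build were used, and no source used here states versions, strand setting, annotation or the tool behind the columns. The FPKM values were computed by the authors, per the file headers, and so was coverage, a signal in reads per base without scaling for library size; each table held 28107 transcript rows. Rows marked OK in all 4 libraries were used (394 were not), and a symbol was given by its row with the highest mean FPKM, with the sum of rows as an alternative. Coverage divided by FPKM was constant within a library and gave its relative depth. Coverage times length of low single-row transcripts peaked at 44.8 to 45.3 bases and again near 88.7 to 89.8 bases, so the first was taken as 1 read; depths in reads and counting intervals rest on it, and intervals for summed rows are centred on the FPKM ratio. PCR copies are not independent molecules. Whole reads were not recovered from FPKM, so no count test was run, and with 1 library per group there is no p-value.

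The comparisons, pseudocount (1), floor (1 FPKM) and size rule (1 on the log2 scale) were set with 9 alternatives; calculations used Python 3.11.15, pandas 2.3.3, numpy 2.4.6 and scipy 1.17.1 and were tested on simulated data. Genes named were the 10 members, members of 6 lists past the size rule with up to 3 others by mean level, and the 5 nearest patterns of each member past the size rule. Bach1, Bach2, Mafg, Gss and Hmox2 fall outside that rule and were named after their values were seen. So were the markers S100a8, S100a9, Cd14, Ngp, Camp, Cd68, Csf1r, Emr1 and Mrc1. The mast cell and basophil genes named beside Hmox1 were also named after their values were seen. The counts of genes whose libraries do not overlap were chosen after the values were seen too. The members, lists, markers and promoter motifs were chosen with earlier results of these data known. Positions are those of the deposited tables; their build is unsettled, and whether they count from 0 or 1 is not stated. Symbols with no row under their name (Nfe2l1 and Flvcr1 among the lists) are not analysed here, and the sum of the lymphoid markers is not reported here.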

Additional observations from a re-analysis of the deposited data

Results flagged for a closer look

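For Srxn1 alone of the 10 genes, the 4-OHT differences had opposite signs in the genotypes and lay at least 1 apart. On the log2 scale they were 0.13 in control cells and -1.45 in Meis1f/f cells, a difference of -1.58. In control cells the 4-OHT to vehicle ratio was 1.10 (interval 1.00 to 1.22), so the sign there rests on a small difference. Control cells had 12.5 FPKM under vehicle and 13.8 under 4-OHT, and Meis1f/f cells had 42.2 and 14.8. The difference was not tested, since each group has 1 library. The Meis1f/f vehicle library alone was in lane 1, so lane and group cannot be told apart for it.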

How the results depend on the processing

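With 1 library per group every value rests on a single library, and no library could be left out of a comparison. No paired analysis was possible because each group has 1 library and the labels give no replicate numbers. Counts of all symbols higher and lower, in the order 4-OHT in control cells, 4-OHT in Meis1f/f cells, difference of the effects, genotypes under vehicle and genotypes under 4-OHT, were 150 and 96, 178 and 249, 231 and 396, 638 and 230 and 406 and 176 as reported, 479 and 203, 423 and 433, 430 and 718, 1052 and 398 and 646 and 338 with a pseudocount of 0.1, and 13 and 20, 38 and 72, 53 and 109, 237 and 55 and 150 and 51 with one of 5. Summed rows gave 63 lower in control cells. A floor of 5 FPKM gave 92 higher in control cells, 242 lower in the difference of the effects, and 262 higher and 106 lower between genotypes under 4-OHT; fewer symbols were counted there. In Meis1f/f cells 113 symbols were higher under median ratio rescaling and 101 with the length trend removed; the share of higher among called symbols there fell from 41.7% to 23.8%, to 28.0% under upper quartile rescaling and to 23.0% with the length trend removed. In the difference of the effects that share fell from 36.8% to 26.7%, 26.8% and 26.1% in the same order. Median ratio rescaling moved the median of all symbols in Meis1f/f cells from 0.11 to -0.01.

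Of 450 member values under the 9 alternatives, 370 stayed the same and 80 moved, by more than the counting error or across the size of 1. A change of direction was scored only for values past the size rule as reported, and 0 of those changed direction. The 3 genes lower in Meis1f/f cells, the 3 lower in the difference of the effects and the 4 higher under vehicle passed the size rule under all 9. Members lower with 4-OHT in control cells numbered 1 with a pseudocount of 5, where Slc7a11 was at -0.77, and 1 with rows summed, where Txnrd1 was at -0.80. Members higher between genotypes under 4-OHT numbered 0 with a pseudocount of 5, where Nqo1 was at 0.95. Gclc in Meis1f/f cells passed the size rule under median ratio rescaling (-1.08), upper quartile rescaling (-1.03) and length trend removal (-1.03). Of the 10 genes Nqo1 had the fewest estimated reads, 234 in control 4-OHT cells, so its intervals were the widest. The cause of these shifts was not tested.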
